A study of Mus musculus with 12 samples.

Results

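The nuclear factor I (NFI) genes Nfia, Nfib, Nfic and Nfix encode the 4 members of a family of site-specific DNA-binding transcription factors, and they were followed here through every ATAC-seq peak that the deposited tables assign to one of these symbols. This gave 97 of 58558 peaks in brown fat (61 for Nfia, 20 for Nfib, 4 for Nfic and 12 for Nfix) and 43 of 39558 peaks in inguinal fat (25, 6, 3 and 9). A further 22 brown fat and 16 inguinal peaks lie inside the spans of these genes but carry the symbol of another gene, and they enter none of the counts or levels given here. All mice were C57BL/6 and carried floxed alleles of BAF60a (gene Smarcd1), which belongs to the SWI/SNF complexes that move nucleosomes. Flox mice had no Cre, and AKO mice carried Adiponectin-Cre, which is driven by an adipocyte promoter and so leaves the other cells of the tissue with BAF60a. Whole brown fat (BAT) came from 3 flox and 3 AKO mice, 1 mouse per sample, whose age and housing temperature are not given with these samples. Whole inguinal fat (iWAT) came from mice of 6 to 8 months kept at 10 °C for 7 days, and the fat of 6 mice per genotype was pooled and divided into 3 aliquots, so that the 3 inguinal samples of a genotype differ only by technical error and any p-value there measures that error alone.

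NFI proteins bind as dimers to a palindrome of the core TTGGC, and a single core is bound more weakly. Family members can occupy the same sites and can act as activators or repressors. In brown fat, NFIA is known as a factor that opens chromatin near brown adipocyte genes and binds there together with PPARγ, whereas NFIB and NFIX are better known from lung, brain and muscle development, and NFIC from that of teeth. ATAC-seq counts insertions of a transposase into open DNA, so a peak at an NFI gene reports how accessible the regulatory DNA of that gene was, and not where NFI proteins were bound. Because whole tissue was used, fewer cells of a type and a smaller opening per cell cannot be told apart.

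Sequences are shown for 7 intronic or distal NFI peaks, chosen from those with the smallest p of their gene and direction or with a call in any fit, so that the DNA behind the values can be read directly. Each is the central 200 bases of the peak on the plus strand of mm10, taken from the RefSeq assembly GRCm38.p6 and touching no annotated exon. Capitals mark matches, on either strand, to TTGGCA, to the C/EBP motif TTGCNNAA, or to the direct repeat AGGTCANAGGTCA bound by PPARγ and RXR. At most 2 mismatches were allowed in the repeat. TTGGCA is the core TTGGC followed by an A, and from here on NFI core means this longer form.
Nfia, brown fat, chr4:97551312-97551511: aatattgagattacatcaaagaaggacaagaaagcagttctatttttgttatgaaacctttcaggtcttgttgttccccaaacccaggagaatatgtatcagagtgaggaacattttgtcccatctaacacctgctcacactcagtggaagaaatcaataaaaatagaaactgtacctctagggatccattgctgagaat
Nfia, brown fat, chr4:97818567-97818766: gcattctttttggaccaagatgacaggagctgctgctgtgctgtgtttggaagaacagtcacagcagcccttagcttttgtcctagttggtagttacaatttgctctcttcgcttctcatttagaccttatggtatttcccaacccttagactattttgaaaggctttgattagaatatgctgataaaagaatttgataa
Nfia, brown fat, chr4:97908761-97908960: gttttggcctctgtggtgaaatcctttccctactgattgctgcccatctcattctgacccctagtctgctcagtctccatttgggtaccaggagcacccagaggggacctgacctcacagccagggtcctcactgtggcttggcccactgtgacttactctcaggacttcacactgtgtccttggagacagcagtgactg
Nfia, brown fat, chr4:97911279-97911478: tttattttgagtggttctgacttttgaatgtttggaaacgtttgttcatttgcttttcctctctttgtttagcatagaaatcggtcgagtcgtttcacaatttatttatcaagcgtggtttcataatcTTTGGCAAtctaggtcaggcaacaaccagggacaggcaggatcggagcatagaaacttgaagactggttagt
Nfix, brown fat, chr8:84742691-84742890: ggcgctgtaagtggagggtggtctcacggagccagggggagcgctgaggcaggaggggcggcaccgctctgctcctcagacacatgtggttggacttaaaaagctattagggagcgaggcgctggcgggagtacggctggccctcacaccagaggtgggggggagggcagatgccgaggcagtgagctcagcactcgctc
Nfia, inguinal fat, chr4:98002243-98002442: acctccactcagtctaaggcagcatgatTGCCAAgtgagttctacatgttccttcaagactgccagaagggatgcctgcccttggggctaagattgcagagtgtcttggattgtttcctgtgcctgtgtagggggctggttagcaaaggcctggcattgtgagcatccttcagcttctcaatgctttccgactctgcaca
Nfib, inguinal fat, chr4:82404434-82404633: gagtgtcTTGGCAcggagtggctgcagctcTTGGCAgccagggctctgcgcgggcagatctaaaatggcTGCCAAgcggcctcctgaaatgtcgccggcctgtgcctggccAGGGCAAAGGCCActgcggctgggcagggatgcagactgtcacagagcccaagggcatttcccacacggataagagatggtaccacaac
The fourth of these windows holds an NFI core that overlaps a C/EBP match, the inguinal Nfia window holds 1 NFI core, and the inguinal Nfib window holds 3 NFI cores and 1 direct repeat. The other brown fat windows shown hold no match to these motifs. The shorter TTGGC was not marked, and the third window holds it followed by a C.

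Over the central 200 bases of each brown fat peak, 24 of 97 NFI peaks (24.7%) held the NFI core, against 18.6% of all peaks. The full palindrome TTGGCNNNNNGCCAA, with at most 1 mismatch in its 10 fixed letters, was in 0 of the 97 and in 1.43% of all peaks. An EBF motif, TCCCNNGGGA, was likewise in 0 of 97 and in 1.84% of all. The PPARγ repeat was found in 1 NFI window, at Nfix (1.03% against 4.56%), and the C/EBP letters in 11 (11.3% against 11.0%). In inguinal fat the NFI core was in 10 of 43 NFI windows (23.3% against 15.6% of all), the palindrome and the EBF motif in 0 (1.07% and 1.2% of all), the repeat in 2 (4.65% against 3.6%) and the C/EBP letters in 3 (6.98% against 10.3%). Base composition differed between the members, with a median GC content in brown fat of 45.5% at Nfia, 47.5% at Nfib, 59% at Nfic and 57.5% at Nfix, where all peaks had 53%.

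Values are normalized reads: each sample's reads in the peak over its own size factor. Reads in peaks ran from 6336670 (AKO replicate 2) to 27500738 (flox replicate 1) in brown fat and from 4066720 to 6691161 in inguinal fat. In brown fat, principal component 1 (PC1) of all peaks held 55.6% of the variance. Its scores were −98.2, −41.8 and 14.6 in flox replicates 1 to 3 and −0.617, 112 and 13.5 in those of AKO. The 2 ends were thus the samples with the most and the fewest reads, and the scores were in part shared with genotype. The score was a covariate there, so fitted log2 fold changes need not match the means of the genotypes. The targeted gene was as labelled: the Smarcd1 peak over exon 5 (chr15:99704113-99704521) had 136, 201 and 185 normalized reads in flox brown fat and 23.7, 57.9 and 26.9 in that of AKO mice. Its log2 fold change was −2.98 ± 0.265 (standard error), with an adjusted p of 0.269 in limma and 4.04e-11 in DESeq2, so that in brown fat limma did not call the deletion itself. No peak at that place was among those analysed in inguinal fat, and the deletion was not checked there. Of the 7 adipocyte marker genes, 7 had peaks in both tissues, and Ucp1, the uncoupling protein of brown fat, had 12 peaks with 746 normalized reads per kb in flox brown fat, against 366 per kb over all peaks of the table.

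In brown fat, the summed accessibility of the Nfia peaks was lower in every AKO mouse than in every flox mouse, though no single Nfia peak passed the test across all peaks. The 61 peaks had 349, 386 and 345 normalized reads per kb for flox (replicates 1 to 3, as in all series of values given here), while AKO mice had 309, 264 and 296. The means were 360 ± 22.6 for flox and 289.6 ± 22.7 per kb for AKO (± SD over 3 mice), a ratio of 0.805 where the ratio over all peaks was 0.951. Nfia peaks took 0.0871%, 0.104% and 0.0945% of the normalized reads of the table in flox and 0.0833%, 0.0775% and 0.08% in AKO mice, again without overlap. These levels and shares were not adjusted for PC1, whose scores were in part shared with genotype. How many of all genes had sums apart in this way was not counted, so this separation is not shown to be particular to Nfia. The summed peaks of the partner factor and thermogenic target lists given below were also lower in every AKO mouse, with ratios of 0.839 and 0.665.

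At the other members the genotypes overlapped. Nfib had 315, 281 and 301 normalized reads per kb in flox mice and 309, 218 and 285 in AKO mice, with 1 low sample, AKO replicate 2. For Nfic, the values were 649, 541 and 581 in flox and 556, 498 and 659 in AKO mice. Nfix went the other way in its means, with 277, 302 and 293 in flox and 292, 320 and 341 in AKO mice, a ratio of 1.09, but the lowest AKO mouse lay within the flox range. By level per kb in flox brown fat, Nfic came first, then Nfia, and then Nfib and Nfix, whose values overlapped each other. The difference between Nfia and the other members was not tested, since peaks of a gene are not replicates of it.

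**Figure D1:**
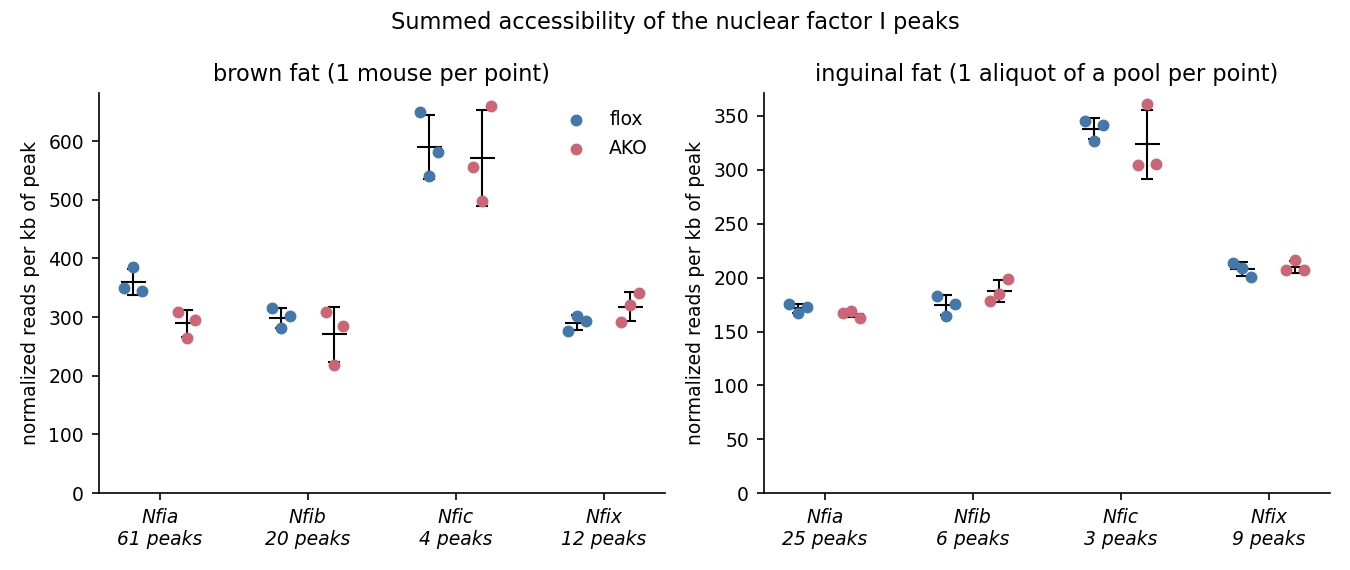
Summed normalized reads per kb of peak (vertical axis, starting at 0) of each NFI gene in brown fat (left) and inguinal fat (right). Points are samples, blue for flox and red for AKO, and bars give mean and SD of 3 samples. Nfia in brown fat is the one gene whose genotypes do not overlap, 345 to 386 in flox and 264 to 309 in AKO mice; the tables were normalized separately, so levels cannot be set against each other across tissues.

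Peak by peak, the limma test with Benjamini-Hochberg adjustment over all 58558 peaks called 0 NFI peaks in brown fat at an adjusted p under 0.1, as it called 0% of all peaks lower and 0% higher. The smallest adjusted p of an NFI peak was 0.436. At an unadjusted p under 0.05, 11 NFI peaks were lower (10 of 61 at Nfia and 1 of 20 at Nfib), where 5.59% of all peaks were, and 1 was higher (at Nfix), where 3.46% of all were. DESeq2 on the recovered reads gave no adjusted p for 25 of the 97 and called 0 in either direction (0.298% of all peaks with an adjusted p were lower and 0.11% higher), and edgeR also called 0 (0.114% and 0.029%). At an unadjusted p under 0.05, DESeq2 had 7 NFI peaks lower and 1 higher, and edgeR 11 and 1. Of all 58558 peaks, DESeq2 had 1920 lower (3.28%) and 1576 higher at this threshold, and edgeR 3021 (5.16%) and 2644. A mean of at least 50 normalized reads was reached by 82 of the 97. With the PC1 covariate left out, a choice made after the data were seen, DESeq2 called 3 NFI peaks lower and 0 higher, against 0.517% and 0.512% of all peaks. All 3 were Nfia peaks, centered 131253 bp and 133771 bp downstream of its start and at −226196 bp.

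The sign of the fitted change was negative at 50 of 61 Nfia peaks, 8 of 20 Nfib peaks, 1 of 4 Nfic peaks and 4 of 12 Nfix peaks, where it was negative at 49.1% of all peaks. The median log2 fold change was −0.22 at Nfia, 0.11 at Nfib, 0.13 at Nfic and 0.04 at Nfix, against 0.0067 over all peaks. At 18 of the 61 Nfia peaks (29.5%) every AKO mouse was under every flox mouse, which held for 8.84% of all peaks, and at 1 Nfia peak every AKO mouse was higher, against 8.77% of all. Among the other 36 NFI peaks, this was so at 1 lower and 3 higher peaks, all of Nfix. Such separations were read from normalized reads without PC1, whose scores were in part shared with genotype. Not all of the 18 Nfia peaks had an unadjusted limma p under 0.05 in the fit with PC1. Leaving out each mouse in turn gave a median at Nfia from −0.35 (without AKO replicate 1) to −0.17 (without flox replicate 2). When flox replicate 2 was left out, 4 Nfia peaks in place of 10 were lower at an unadjusted p under 0.05. That was 6.56% of the Nfia peaks, against 4.19% of all peaks under the same setting. Without AKO replicate 2, the sample with the fewest reads, 50 of 61 Nfia peaks were negative and 14 (23%) were lower at an unadjusted p under 0.05. Of all peaks, 5.93% were lower under that setting. Without PC1, the Nfia median was −0.23, while the medians of Nfib and Nfic turned negative, to −0.12 and −0.03. That of Nfib was also −0.12 without AKO replicate 1, and that of Nfic −0.03 without AKO replicate 3. The Nfix median turned to −0.10 without AKO replicate 3 and −0.04 without flox replicate 3.

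**Figure D2:**
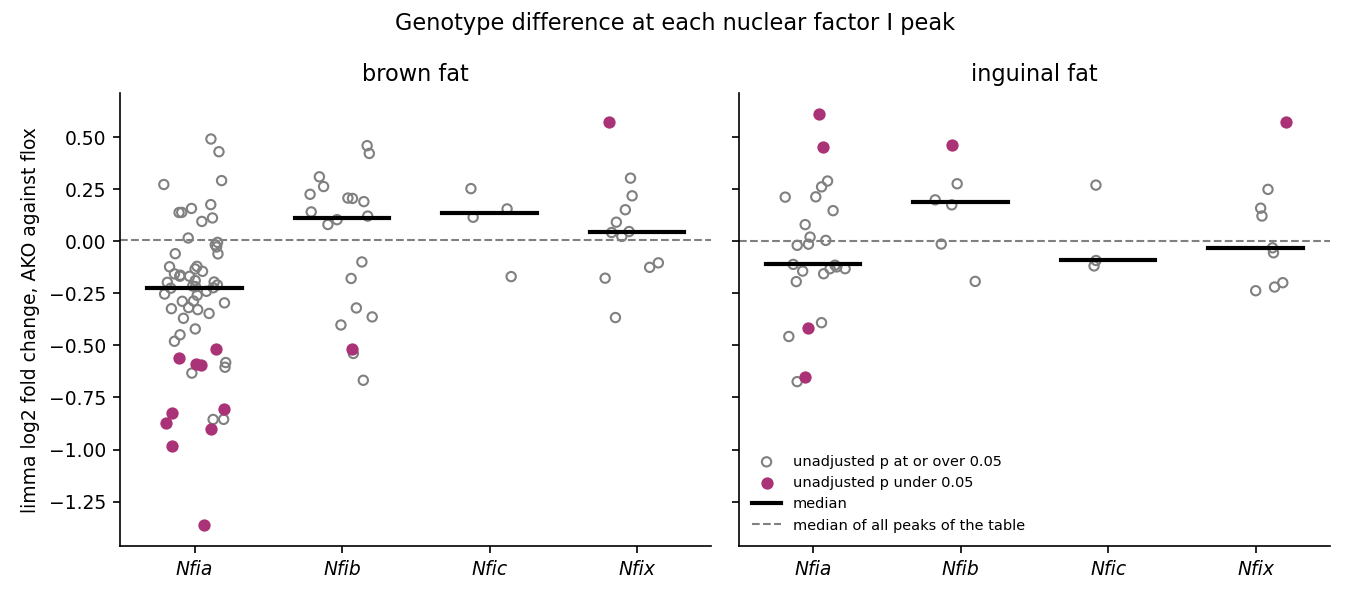
Limma log2 fold change, AKO against flox, at each NFI peak of brown fat (left) and inguinal fat (right), by gene. Each circle is a peak, filled where the unadjusted p was under 0.05, black bars are medians and the dashed line is the median of all peaks of the table. The Nfia peaks of brown fat centre on −0.22, with 10 filled points below 0 and none above, while the other genes spread around 0.

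The Nfia peaks that were lower in brown fat lay on both sides of its start and over its start. GENCODE M21 places Nfia on the plus strand of chromosome 4, from 97772734 to 98118874, and its principal transcript begins at 97777608. The peak over that start, chr4:97777569-97778807, had 374, 395 and 384 normalized reads in flox and 304, 259 and 322 in AKO mice, with every AKO mouse lower and a log2 fold change of −0.29 ± 0.186 (standard error). Upstream, 16 of 22 peaks were negative and 9 had all AKO mice below all flox mice. In introns, 32 of 37 were negative and 8 had all AKO mice below. Of all brown fat peaks, 49.1% were negative and 8.84% had all AKO mice below. The most accessible Nfia peak, chr4:97750991-97752228, centered at −25999 bp, had 1088, 1154 and 956 normalized reads in flox and 897, 645 and 795 in AKO mice, a log2 fold change of −0.23 ± 0.189 with a limma adjusted p of 0.751.

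The Nfia peak with the smallest p lay in intron 2, 41059 bp downstream of the start (chr4:97818537-97818798, the second sequence above). It had 98.2, 113 and 102 normalized reads in flox and 46.4, 59.9 and 63.3 in AKO mice. The genotypes were well apart, with a log2 fold change of −0.98 ± 0.217 and a limma adjusted p of 0.436. Further into intron 2, 2 strong peaks lay side by side. The first, chr4:97908568-97909154, had 514, 647 and 482 normalized reads in flox and 336, 301 and 361 in AKO mice, a log2 fold change of −0.60 ± 0.215. Its neighbor, chr4:97910685-97912074, whose central window carries the NFI core, had 553, 652 and 529 in flox and 367, 373 and 402 in AKO mice, a log2 fold change of −0.56 ± 0.195. Neither pair of groups overlapped, and both had limma adjusted p-values above 0.5 (0.518 and 0.506). In DESeq2 without PC1 their adjusted p-values were 0.0435 and 0.0804.

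Far upstream, the peak chr4:97551131-97551693 had 232, 263 and 224 normalized reads in flox and 168, 114 and 88.3 in AKO mice. This was again a separation of all mice, with a log2 fold change of −0.90 ± 0.318, a limma adjusted p of 0.513 and an adjusted p of 0.0491 in DESeq2 without PC1. The most distant peak assigned to Nfia was centered at −584187 bp from its start, and its neighbor, chr4:97198248-97198642, had 129, 112 and 97 in flox and 67, 69.5 and 49.9 in AKO mice (log2 fold change −0.81 ± 0.252). These peaks carry the symbol Nfia because its start was the nearest one, and no measurement here ties them to the gene. Of the 10 Nfia peaks with an unadjusted p under 0.05, 3 had overlapping genotypes and few reads. One of these, chr4:97930662-97930871, had 12.5, 27.3 and 45.3 in flox and 24.7, 52.1 and 21.1 in AKO mice, so that its AKO mean of 32.7 was above its flox mean of 28.4 while the log2 fold change fitted with PC1 was −0.82. The Nfia peak with the smallest p among positive changes, chr4:98009048-98009657 in intron 4, had 56.4, 62.8 and 42.7 in flox and 63.9, 67.6 and 68.1 in AKO mice (log2 fold change 0.43 ± 0.226, limma adjusted p 0.615), and its log2 fold change was 0.068 without flox replicate 3.

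**Figure D3:**
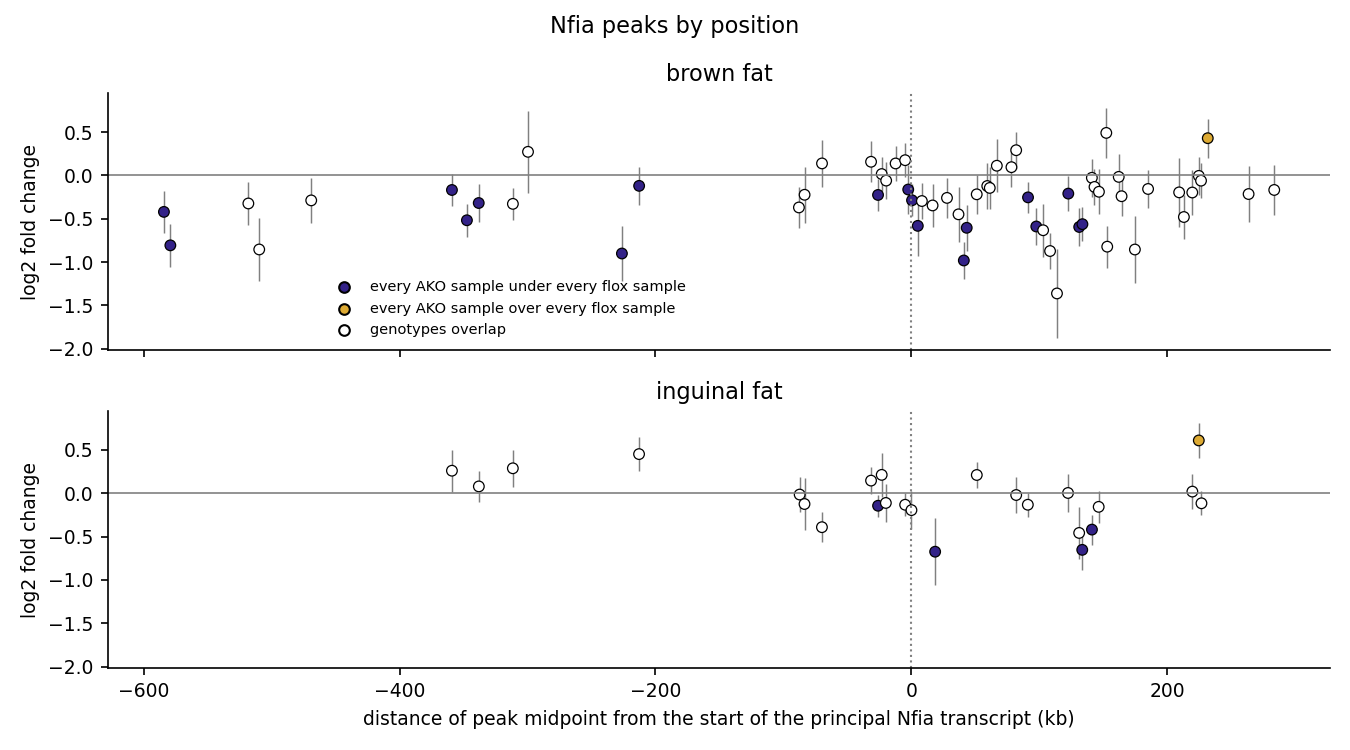
Log2 fold change of each Nfia peak (points, with standard errors) against the distance of its midpoint from the start of the principal transcript in kb, in brown fat (top) and inguinal fat (bottom). Dark points are peaks where every AKO sample was under every flox sample, yellow points those where every AKO sample was higher. Dark points in brown fat, 18 of 61, run from the far upstream peaks to the middle of intron 2, and inguinal fat has 4 of 25. Of all peaks, 8.84% in brown fat and 10.3% in inguinal fat were apart and lower.

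Nfib, on the minus strand of chromosome 4 (82290173 to 82705750), had its strongest peak over an annotated start. That peak, chr4:82505378-82508050, had 1626, 1214 and 1169 normalized reads in flox brown fat and 1277, 778 and 1331 in that of AKO mice. AKO replicate 2 was far below the others, the genotypes overlapped, and the log2 fold change of 0.21 ± 0.196 turned to −0.27 without PC1. Among the other Nfib peaks, the smallest p of a negative change was at chr4:82316216-82316487 in intron 10, with 49.1, 70.9 and 62.1 in flox and 45.4, 73.4 and 48.9 in AKO mice (log2 fold change −0.52 ± 0.218, with −0.13 without PC1 and −0.84 without flox replicate 3). The smallest of a positive change was at chr4:82458678-82459275 in intron 2, with 69, 80.5 and 75 in flox and 105, 77.3 and 95.9 in AKO mice (0.42 ± 0.211). The ranges overlapped at both, and their limma adjusted p-values were 0.551 and 0.602.

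Nfix, on the minus strand of chromosome 8 (84699876 to 84800344), had 2 start-site peaks, and both were higher in every AKO mouse of brown fat than in every flox mouse. The one just upstream of the principal start, chr8:84773892-84776635, had 482, 480 and 528 normalized reads in flox and 593, 690 and 559 in AKO mice (log2 fold change 0.15 ± 0.176). The other, at the most upstream start, chr8:84798944-84800736, had 462, 517 and 520 in flox and 613, 539 and 581 in AKO mice (0.22 ± 0.186). Their limma adjusted p-values were 0.822 and 0.755. A larger one was in intron 2, at chr8:84742454-84743128, with 126, 148 and 141 in flox and 178, 247 and 270 in AKO mice, a log2 fold change of 0.57 ± 0.24 (0.33 without AKO replicate 3 and 0.87 without AKO replicate 1) and a limma adjusted p of 0.55. A lower value in every AKO mouse was found at chr8:84782250-84783062, upstream of the principal transcript, with 450, 400 and 358 in flox and 320, 282 and 354 in AKO mice (−0.13 ± 0.177). The Nfix peak with the smallest p of a negative change, chr8:84753406-84753899 in intron 2, had 126, 129 and 142 in flox and 80.4, 114 and 150 in AKO mice (−0.37 ± 0.304).

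Nfic, on the minus strand of chromosome 10 (81396186 to 81455635), had 4 peaks in brown fat, with means from 278 to 641 normalized reads. The strongest, chr10:81429689-81430923, lay 699 bp downstream of its nearest annotated start and had 711, 565 and 664 in flox and 592, 508 and 805 in AKO mice. These overlapped, and the log2 fold change of 0.15 ± 0.25 turned negative without PC1 (−0.047). Values at chr10:81435392-81435799 were 285, 306 and 318 in flox and 249, 209 and 302 in AKO mice (−0.17 ± 0.225), and at chr10:81432913-81433232 they were 365, 310 and 291 in flox and 362, 290 and 333 in AKO mice (0.25 ± 0.172). No Nfic peak had genotypes apart in either tissue.

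In inguinal fat of cold-acclimated mice, the NFI genes differed little between the genotypes. Nfia had 176, 167 and 172 normalized reads per kb in flox aliquots and 167, 169 and 163 in AKO aliquots, a ratio of 0.968 with overlap. Nfib had 183, 165 and 175 in flox and 178, 185 and 198 in AKO aliquots, and Nfix had 214, 209 and 201 in flox and 207, 217 and 207 in AKO aliquots. For Nfic the values were 345, 327 and 342 in flox and 305, 361 and 305 in AKO aliquots. All 4 genes overlapped between the genotypes, and the order of levels per kb in flox was Nfic, Nfix and then Nfib and Nfia, whose values overlapped.

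Limma called 0 of the 43 inguinal NFI peaks at an adjusted p under 0.1, as it called 0% of all peaks in either direction, and the smallest adjusted p was 0.229. DESeq2 called 0 NFI peaks (0.63% of all peaks with an adjusted p lower, 0.546% higher) and edgeR called 0 (2.52% lower, 2.15% higher), with 1 lower and 3 higher at an unadjusted p under 0.05 in DESeq2 and 2 and 4 in edgeR. Of all 39558 inguinal peaks, DESeq2 had 2513 lower (6.35%) and 2337 higher at that threshold, and edgeR 3575 (9.04%) and 3330. At an unadjusted limma p under 0.05, 2 NFI peaks were lower, where 7.42% of all peaks were, and 4 were higher, where 7.61% were. Every AKO aliquot was under every flox aliquot at 5 NFI peaks (10.3% of all peaks) and over every flox aliquot at 5 (10.6% of all), shares of the 43 close to those of the table. Negative changes numbered 15 of 25 at Nfia, 2 of 6 at Nfib, 2 of 3 at Nfic and 5 of 9 at Nfix, against 50.1% of all peaks. The median at Nfia was −0.11 and turned to 0.02 without flox replicate 1 and to 0.00 once peaks averaging under 50 normalized reads were dropped. The inguinal Nfix median of −0.03 turned positive when any flox aliquot was left out (0.14, 0.014 and 0.030 without replicates 1, 2 and 3), without AKO replicate 3 (0.084) and in DESeq2 (0.00036).

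The lower inguinal peak with the smallest p was in intron 2 of Nfia, chr4:97910962-97911506, with 79.8, 57.8 and 60.3 normalized reads in flox and 34.6, 57.1 and 35.3 in AKO aliquots. The closest flox and AKO aliquots were nearly equal, and the log2 fold change was −0.65 ± 0.232 with a limma adjusted p of 0.261. It lies inside the brown fat peak of intron 2 whose sequence carries the NFI core. Nearby, chr4:97918747-97918892 had 27.8, 41.1 and 29.3 in flox and 23.1, 24 and 24.6 in AKO aliquots (−0.42 ± 0.174). Higher values were found in intron 4 of Nfia, at chr4:98002213-98002473, with 34.2, 54.5 and 37.9 in flox and 72.6, 58.2 and 60.9 in AKO aliquots (0.61 ± 0.201, limma adjusted p 0.233). The start-site peak of Nfia, chr4:97777568-97777900, overlapped between genotypes, with 73.4, 47.8 and 80.9 in flox and 61.1, 62.8 and 49.2 in AKO aliquots, as did its strongest peak, chr4:97772081-97773530 (397, 392 and 342 against 331, 340 and 359).

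At Nfib, the inguinal peak chr4:82404391-82404677 in intron 2, the one with 3 NFI cores in its window, had 50.6, 58.9 and 55.1 in flox and 62.2, 81.1 and 86.6 in AKO aliquots (0.46 ± 0.165, limma adjusted p 0.26). Its neighbor chr4:82399824-82400760 was also higher in every AKO aliquot, with 94.8, 88.9 and 92.1 against 108, 111 and 115. The strongest Nfib peak, over the start, was alike, with 398, 345 and 371 in flox and 348, 348 and 408 in AKO aliquots. Nfib at chr4:82384432-82384694 had the smallest p of a negative change, 32.1, 37.8 and 24.1 against 27.7, 29.7 and 23.5. At Nfix, chr8:84745717-84745859 in intron 2 had 32.1, 50 and 36.2 in flox and 54.2, 59.4 and 60.9 in AKO aliquots (0.57 ± 0.185, limma adjusted p 0.229). The upstream start of Nfix had 210, 253 and 212 in flox and 259, 269 and 271 in AKO aliquots, all higher, and the one near the principal start had 304, 261 and 267 in flox and 226, 253 and 234 in AKO aliquots, all lower. Nfic was near its flox values at chr10:81429696-81431028, with 379, 339 and 396 against 317, 387 and 324, and at chr10:81435525-81435708 it had 59.9, 60 and 58.5 against 79.5, 89.1 and 52.4.

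**Figure D4:**
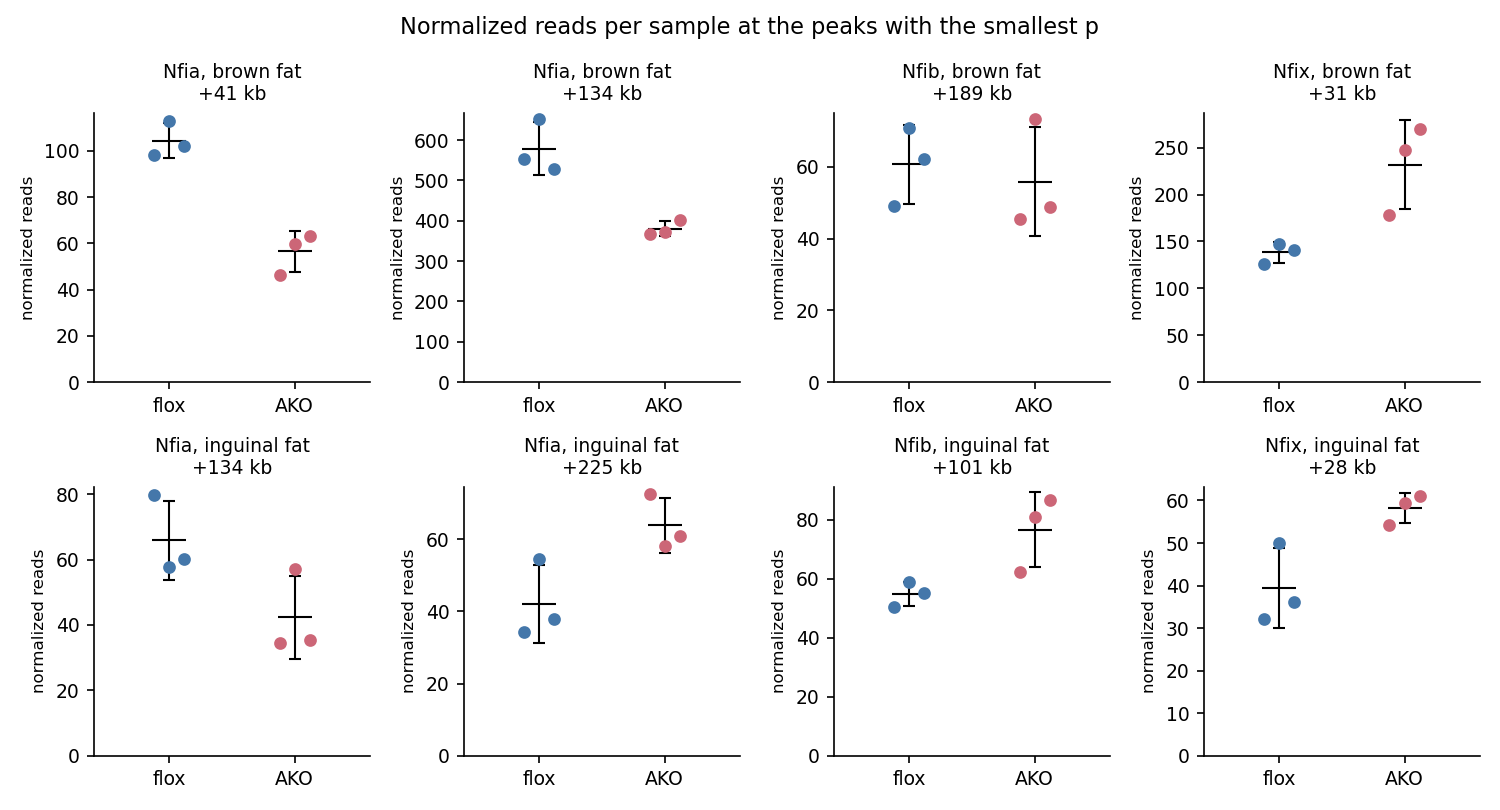
Normalized reads per sample (vertical axes, starting at 0, with a scale of their own) at 8 NFI peaks, named by gene, tissue and distance from the start of the principal transcript. Points are samples, bars mean and SD of 3. The panels are the smallest p of each gene and direction with an unadjusted p under 0.05, and the brown fat Nfia peak that overlaps the lower inguinal one; Nfib in brown fat is the one panel whose genotypes overlap, 49.1 to 70.9 against 45.4 to 73.4.

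Of the 43 inguinal NFI peaks, 42 overlapped a brown fat peak of the same gene by at least 1 bp, so the places could be set side by side, with no test between the separately normalized tables. At Nfia, 11 of 24 pairs were negative in both tissues, 8 were negative in brown fat alone, 3 in inguinal fat alone and 2 in neither. For Nfib, 4 of 6 pairs were positive in both tissues. Genotypes were apart in the same direction in both tissues at 2 Nfia pairs, both lower: the intron 2 pair just described and the pair at −25999 bp from the start, whose inguinal peak had 360, 316 and 343 in flox and 302, 308 and 310 in AKO aliquots. The upstream start of Nfix was apart in both tissues and higher. The other Nfix start was apart in opposite directions, higher in brown fat and lower in inguinal fat. Such pairs were not counted over all peaks found in both tissues. In each table alone, genotypes were apart and lower at 8.84% of all brown fat and 10.3% of all inguinal peaks, and apart and higher at 8.77% and 10.6%. The pair counts are therefore descriptions only.

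**Figure D5:**
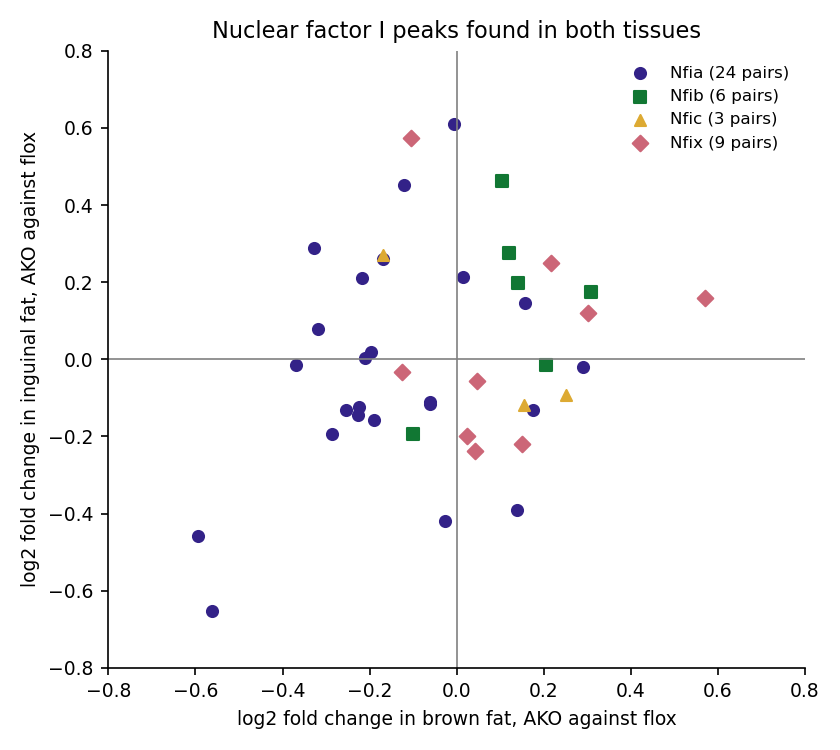
Log2 fold change, AKO against flox, of 42 NFI peaks found in both tissues, brown fat on the horizontal and inguinal fat on the vertical axis, with colors and shapes for genes. The 2 points at the lower left are neighboring Nfia peaks of intron 2, −0.60 and −0.56 in brown fat and −0.46 and −0.65 in inguinal fat; the remaining points lie nearer to 0 on at least 1 axis.

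A list of 16 genes for transcription factors and coregulators of brown adipocytes was set beside the NFI genes, and 15 of them had peaks in each table (Zbtb7b had none). In brown fat, 118 of their 174 peaks were negative (median log2 fold change −0.19), 36 had every AKO mouse under every flox mouse (8.84% of all peaks) and 5 had every AKO mouse higher (8.77% of all). DESeq2 called 1 of these peaks lower, at Cebpa, and 0 higher, against 0.298% and 0.11% of all peaks with an adjusted p. Ppargc1a, a coactivator of thermogenic genes, was negative at 33 of 33 peaks, and Pparg, the master regulator of adipocytes, at 20 of 21. Ebf1 was negative at 21 of 25 peaks, while Rxra, the partner of PPARγ, was negative at 4 of 17. Among 10 thermogenic target genes, 55 of 63 brown fat peaks were negative (median −0.37), 30 were apart and lower and 0 apart and higher, and DESeq2 called 9 lower, 5 of them at Ucp1, and 0 higher, where the shares of all peaks were those just given. In inguinal fat the same lists had 49 of 93 and 8 of 29 negative peaks, with medians of −0.01 and 0.20, and DESeq2 called 0 and 0 lower and 0 and 1 higher, where it called 0.63% of all inguinal peaks lower and 0.546% higher.

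Cell type markers moved with the Nfia values in part. In brown fat the summed level of the brown adipocyte markers (4 of 4 genes with peaks) ran from 609 to 836 normalized reads per kb in flox and from 390 to 464 in AKO mice, and that of adipocyte markers (7 of 7) from 627 to 771 and from 437 to 609. The ratio of AKO to flox was 0.392 at Ucp1 and from 0.588 (Otop1) to 0.745 (Kcnk3) at the other brown adipocyte markers. Adipoq went the other way, with 3 of 3 peaks higher in every AKO mouse (8.77% of all peaks were) and a ratio of 1.35. The other adipocyte markers had ratios from 0.685 (Pnpla2) to 0.758 (Fabp4). Endothelial markers (6 of 6) ran from 196 to 234 and from 217 to 247, fibroblast or preadipocyte markers (6 of 6) from 244 to 264 and from 229 to 261, and smooth muscle markers (4 of 4) from 273 to 318 and from 270 to 316. Macrophage markers had peaks at 2 of 5 genes (none at Csf1r, Cd68 and Lyz2), from 106 to 172 and from 111 to 135. Lymphocyte markers had peaks at 2 of 5 (none at Ptprc, Cd3e and Cd79a), from 228 to 291 and from 253 to 385, and skeletal muscle markers at 2 of 4 (none at Ckm and Mylpf), from 201 to 224 and from 200 to 298. In inguinal fat the brown adipocyte markers ran from 115 to 127 in flox and from 138 to 157 in AKO aliquots and the adipocyte markers from 215 to 282 and from 222 to 239. The inguinal ratio was 0.973 at Ucp1 and from 1.30 (Cidea) to 1.35 (Kcnk3) at the other brown adipocyte markers. Lymphocyte markers ran there from 156 to 159 and from 123 to 150, and the skeletal muscle ones from 383 to 477 and from 363 to 381, both lower without overlap; the inguinal ranges of the endothelial, macrophage, fibroblast and smooth muscle markers overlapped. The part of such shifts in the Nfia values was not tested.

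Among 1804 genes with at least 5 peaks in each table, the summed level of Nfia over the 12 samples, centered within each tissue, was most like those of Tob2 (Pearson r = 0.954), Lamb3 (0.944) and 4930563F08Rik (0.94). Nfib was most like Jun (0.911), Selenof (0.908) and Zcchc2 (0.899), and Nfix most like Nck2 (0.895), Foxl1 (0.856) and Actn1 (0.846). Between members, r was 0.547 for Nfia with Nfib, −0.53 for Nfia with Nfix and −0.452 for Nfib with Nfix. Ranked by likeness among the genes compared, Nfib stood only at place 472 for Nfia, and Nfia at place 520 for Nfib. Nfix stood at place 1618 for Nfia and 1613 for Nfib. These values are descriptions over samples that share their libraries and depth, and 6 of the 12 are aliquots of 2 pools. Nfic had fewer than 5 peaks in each table and was not compared.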

How the data were processed

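Nuclei of whole brown or inguinal fat were treated with a transposase and the insertions sequenced (12 samples, 3 in each of 4 groups). Per the submitters' processing notes, the tools were BWA (0.7.17-r1188), Picard (2.8.14), MACS2 (2.1.1.20160309), bedtools (2.27.1) and DESeq2 (1.20.0), and the genome was mm10. The authors merged peaks into 1 table per tissue and deposited, per peak and sample, a signal that is a read count divided by the size factor of the sample; both tables also hold the fold changes and p-values of the authors, which were not used. No per-sample column was left out (0 unused). Whole reads were recovered for 100% of values (tolerance 0.01 read), with 4066720 to 27500738 reads in peaks per sample.

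The main test was limma (3.58.1, R 4.3.3) on log2(normalized reads + 1) over all peaks of a table, which understates changes of low peaks, with Benjamini-Hochberg adjustment, a threshold of 0.1 and, for brown fat alone, the PC1 score in the model. DESeq2 (1.42.0) and edgeR (4.0.16, quasi-likelihood) on the recovered reads were alternatives, as were another pseudocount, a filter at a mean of 50 normalized reads, no PC1, the replicate block and each sample left out. On simulated data with 100 peaks changed per size in 58558 brown fat peaks, limma recovered 0 of 100 at a log2 change of 1 and 51 of 100 at 2, and DESeq2 67 and 100, with 2 unchanged peaks called by limma and 39 by DESeq2. In inguinal fat limma recovered 36 and 100, with 10 unchanged peaks called. The changed peaks were drawn from those averaging at least 100 normalized reads, and the PC1 pattern of the real samples was not simulated. Recovery at lower peaks was not measured, and the median NFI peak averaged 151 in brown fat and 73.7 in inguinal fat. Named peaks were, per gene and tissue, the one nearest a start site, the highest, and the smallest p in each direction; other named peaks were chosen after their values were seen. The genes, partner factor and target lists and marker lists were chosen with earlier results of these data known. A further marker list is not reported here. Positions are mm10, written from 1, with GENCODE M21 gene models; the deposited starts count from 0 by their agreement with the deposited distances in the brown fat table, and the same was assumed for the inguinal one. The numbers of the replicates did not pair the samples.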

Additional observations from a re-analysis of the deposited data

Results flagged for a closer look

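The Nfix peak near the principal start was higher in every AKO mouse of brown fat, with a log2 fold change of 0.151 at chr8:84773892-84776635, and lower in every AKO aliquot of inguinal fat, with −0.22 at the overlapping peak chr8:84773904-84775349. The brown fat peak is 2744 bp wide and the inguinal one 1446 bp, so part of the brown fat signal lies outside the inguinal peak. The genotypes did not overlap in either tissue and lay in opposite directions, which is what drew attention to this place. How often this happens over all peaks found in both tissues was not counted. The difference between the tissues was not tested, since the tables were normalized separately, and neither change passed the test within its tissue. The age and housing temperature of the brown fat mice are not given, so tissue and housing cannot be told apart here.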

How the results depend on the processing

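Counts of NFI calls were 0 in both directions and tissues under every alternative run but one: DESeq2 without PC1, chosen after the data were seen, gave 3 lower in brown fat. The replicate block also gave 0, and the replicate numbers did not pair the samples, with correlations of deviations between same-numbered brown fat samples of 0.494, 0.0632 and −0.236. Among named brown fat peaks, Nfib at chr4:82505378 turned to −0.27 without PC1 and −0.24 in DESeq2 without PC1. Nfic at chr10:81429689 turned to −0.047 and −0.022 under the same settings, and with each sample left out in turn it ran from −0.094 (without AKO replicate 3) to 0.43. With each sample left out, Nfic at chr10:81435392 ran from −0.36 to 0.048 (without flox replicate 3), Nfix at chr8:84753406 from −0.75 to 0.072 (without AKO replicate 1) and the inguinal Nfib peak at chr4:82505322 from −0.090 to 0.038 (without flox replicate 1). The cause was not tested. The remaining 380 values of the peaks named by rule kept their direction and side of the threshold. Their size could still move by over 1.5 times: without PC1, for example, Nfia at chr4:97750991 was −0.46, Nfic at chr10:81432913 0.028 and Nfix at chr8:84773892 0.30, against −0.23, 0.25 and 0.15 with it. Peaks named outside the rule are not in this count. Of those, Nfia at chr4:97930662 turned from −0.82 to 0.26 without PC1. Nfia at chr4:97551131, chr4:97908568 and chr4:97910685 passed the threshold in DESeq2 without PC1. With 3 samples per genotype and PC1 in the brown fat fit, limma could not call a change of 1 on the log2 scale in simulated data, so a count of 0 does not show that NFI peaks were alike.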
